A study of Rattus norvegicus with 6 samples.

Results

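The genes described here encode the peptide hormones that islet cells other than β-cells make: *Gcg* (glucagon), *Sst* (somatostatin), *Ppy* (pancreatic polypeptide), *Pyy* (peptide YY) and *Ghrl* (ghrelin). They were chosen by name, as the non-control spots of the array whose gene name in the scanner files is 1 of these 5. All 5 genes were found, each with 1 probe, among 45598 probes that carry 18111 gene symbols. *Sst* was printed in 10 spots and the other members in 1 spot each.

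Expression was measured in replicating and quiescent β-cells sorted from the islets of young adult male Wistar rats. Islets of 4 rats were pooled in each of 3 preparations, and each preparation gave 1 sample of each group, so that there were 3 replicating and 3 quiescent arrays. All islets were cultured overnight at basal glucose with the thymidine analogue EdU, dispersed, loaded with the zinc dye Newport Green, fixed and permeabilised. Both groups were taken from cells of high scatter and high dye signal, and they differ in EdU: positive cells were collected as replicating and negative cells as quiescent. A replicating sample is therefore the cells that passed through S phase during the culture. No array of the sorted non-β-cells was analysed here.

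In the islet, α-cells secrete glucagon, δ-cells somatostatin and PP cells pancreatic polypeptide, while ghrelin marks the ε-cells, which are scarce in the adult. Peptide YY is made by some islet endocrine cells and by enteroendocrine cells of the gut. Glucagon raises hepatic glucose output and stimulates insulin release from neighbouring β-cells, somatostatin inhibits both α- and β-cells, and pancreatic polypeptide and peptide YY signal through the Y family of receptors. Mature β-cells keep these genes low. Which cells of a sorted sample carried the mRNA was not tested.

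The labels were first set against marker genes. *Ins1* and *Ins2*, the rat insulin genes, were well above background on every array, and all 8 replication genes of the check list (*Mki67*, *Top2a*, *Plk1*, *Ccnb1*, *Cdk1*, *Pcna*, *Mcm5* and *Rrm2*) were higher in the replicating arrays. The replicating arrays had an r of 0.967 to 0.986 with each other across probes, which are not independent replicates. The quiescent array of preparation 2 stood apart, with an r of 0.654 to 0.830 with the other quiescent arrays and 1583 outlier spots against 252 to 299 elsewhere. The quiescent array of preparation 3, in contrast, had an r of 0.943 to 0.969 with the replicating arrays and 0.867 with the quiescent array of preparation 1. The ratios of the members are given with and without each of these preparations. With limma, 0 probes passed an adjusted p of 0.05 and 4379 (9.6%) had an unadjusted p up to 0.05. A probe is called higher or lower here when its log2 ratio is at least 1 in size and its limma p, before adjustment, does not exceed 0.05. By this rule 2023 probes (4.44%) were called higher and 1905 (4.18%) lower in replicating cells, or 8.61% in either direction, and without preparation 2 these were 1447 (3.17%) and 813 (1.78%). Without preparation 3 the probes called higher rose to 5112. The split moved with the scaling, to 1596 higher and 5862 lower when the same background-corrected signals were scaled to the 75th percentile, and to 662 and 3193 when the processed signal was used with that scaling.

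The letters to which the labelled cDNA bound are shown for the members whose probe lies in coding sequence. They show which part of the coding sequence each probe matches, and each value is a level of mRNA, not of a peptide. Each probe is 60 bases long.
*Gcg* probe: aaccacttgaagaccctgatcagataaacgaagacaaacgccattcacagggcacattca
*Pyy* probe: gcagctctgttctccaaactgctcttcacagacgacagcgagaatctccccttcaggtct
*Ghrl* probe: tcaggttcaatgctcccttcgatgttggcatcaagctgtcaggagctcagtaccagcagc
The *Gcg* probe ends in the codons for the first residues of glucagon, the *Pyy* probe lies in the C-terminal extension that is cut off peptide YY, and the *Ghrl* probe lies over the obestatin part of the ghrelin precursor. The *Sst* and *Ppy* probes are placed at the 3′ end of their transcripts. Both hold the polyadenylation signal AATAAA, which 4121 of all probes (9.04%) hold on the strand as deposited. On the rat build rn4 the files place the probes at chr3:44436079-44436138 (*Gcg*, minus strand), chr11:79126157-79126216 (*Sst*, plus strand), chr10:91167958-91168017 (*Ppy*, minus strand), chr10:91174648-91174707 (*Pyy*, minus strand) and chr4:149623700-149625652 (*Ghrl*, minus strand). The *Ghrl* positions span 1953 bases, so this probe crosses a splice junction. The *Ppy* and *Pyy* genes are neighbours, with 6630 bases between their probes.

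The promoters of the 3 members called higher, *Gcg*, *Sst* and *Ppy*, are shown for the elements they hold. The sequences are those of RefSeq on the build GRCr8, from 250 bases before to 20 after the annotated start, on the strand of the gene. Capitals mark TATAAA, the TATA box, and TGACGTCA, the cAMP response element, searched on both strands.
*Gcg*, chr3:67531514-67531783, minus strand: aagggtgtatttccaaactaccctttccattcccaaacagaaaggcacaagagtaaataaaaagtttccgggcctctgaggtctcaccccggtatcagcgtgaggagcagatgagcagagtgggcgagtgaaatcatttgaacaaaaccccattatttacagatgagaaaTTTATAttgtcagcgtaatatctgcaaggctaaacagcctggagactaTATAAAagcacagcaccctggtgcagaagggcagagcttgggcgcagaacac
*Sst*, chr11:90461296-90461565, plus strand: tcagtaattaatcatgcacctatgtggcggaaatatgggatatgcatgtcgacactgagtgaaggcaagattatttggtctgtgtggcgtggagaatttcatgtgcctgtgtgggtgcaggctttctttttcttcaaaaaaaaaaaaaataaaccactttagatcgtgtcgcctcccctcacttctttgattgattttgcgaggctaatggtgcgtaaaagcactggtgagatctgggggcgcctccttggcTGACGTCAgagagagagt
*Ppy*, chr10:87556217-87556486, minus strand: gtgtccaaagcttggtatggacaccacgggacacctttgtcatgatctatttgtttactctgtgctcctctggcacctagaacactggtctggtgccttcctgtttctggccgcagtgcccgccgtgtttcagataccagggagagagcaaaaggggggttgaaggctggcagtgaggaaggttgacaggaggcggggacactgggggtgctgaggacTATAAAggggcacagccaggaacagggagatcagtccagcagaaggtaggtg
TATAAA starts at -32 in both *Gcg* and *Ppy*, and *Gcg* holds it again at -80 on the opposite strand. In *Sst*, TGACGTCA starts 3 bases after the start that RefSeq annotates. Whether transcription starts there in these cells was not tested. Of 33469 such windows, 13.4% hold TATAAA and 1.76% hold TGACGTCA. The windows of *Pyy* and *Ghrl* hold neither. The E-box CANNTG, found in 68.5% of windows, occurs 3 times in *Gcg*, not in *Ppy*, and 1 time in each of *Sst*, *Pyy* and *Ghrl*. A match is a description of the letters and not of a bound site.

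*Gcg* had the largest fitted ratio of the members with all preparations, although *Sst* had the larger one in preparation 1 and without preparation 3. The probe (A_44_P298465) read 14.23, 15.52 and 16.39 in the replicating cells of preparations 1, 2 and 3 on the deposited log2 scale, and 12.88, 12.25 and 13.84 in the quiescent cells of the same preparations. Every replicating array was above every quiescent array, and the lowest replicating value exceeded the highest quiescent value by 0.38. The means were 15.38 ± 1.09 (SD, n = 3) and 12.99 ± 0.80 (SD, n = 3). Within preparations, the replicating cells were 2.53-, 9.60- and 5.86-fold higher. The limma estimate was a log2 ratio of 2.39 (SE 0.46, 95% interval 1.21 to 3.56), or 5.22-fold, with adjusted p = 0.457 over all probes, so that *Gcg* was called higher by the unadjusted rule and did not pass the adjusted one. Its p ranked 325 of 45598. The ratio lay at percentile 99.5 of all probes. Before normalisation the order was not the same: the mean signal was 19590, 34028 and 81003 in replicating and 6612, 3035 and 23922 in quiescent cells, so that the quiescent array of preparation 3 exceeded the replicating array of preparation 1.

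Preparation 2 held the largest *Gcg* ratio, and the quiescent array that stood apart also gave the lowest *Gcg* value. Without preparation 2 the log2 ratio was 1.95 (limma, adjusted p = 0.344), and without preparations 1 and 3 it was 2.91 and 2.30. *Gcg* was called higher in all 12 alternatives whose values could differ, over a range of 1.95 to 2.91. Its adjusted p was 0.0164 when the background-corrected signals were scaled to each array's 75th percentile in place of quantile normalisation, and it lay between 0.0509 and 0.966 in the others. Since these are bulk samples, more cells of a type in a sort and more mRNA per cell cannot be told apart.

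**Figure D1:**
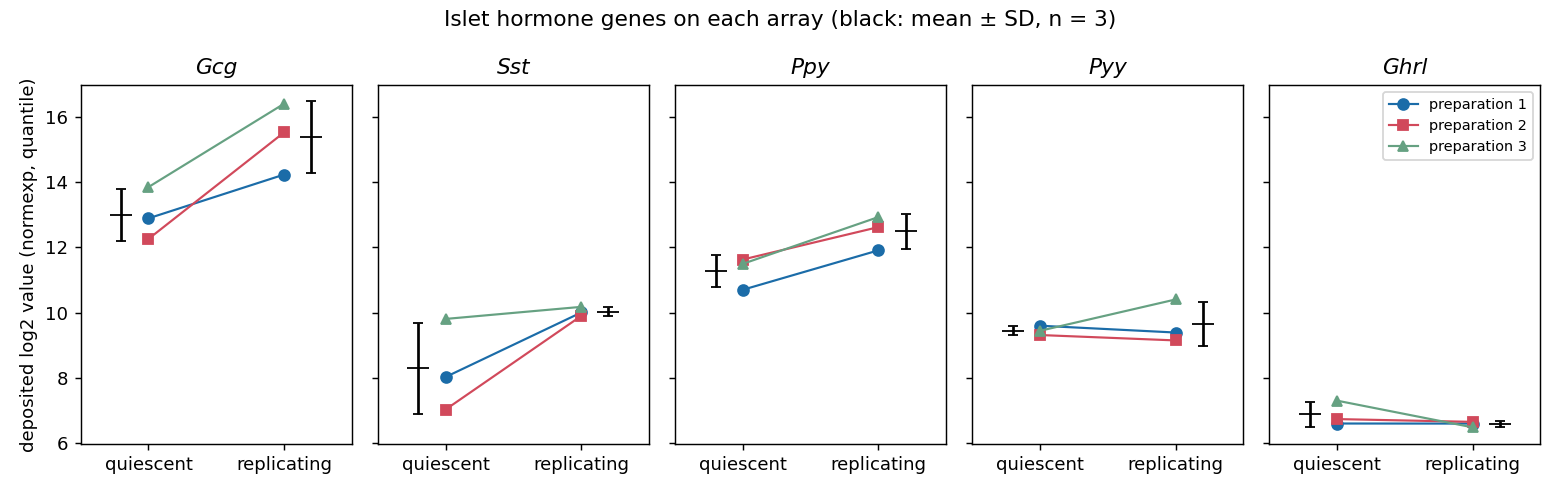
Deposited log2 values of the 5 hormone genes (y axis) in quiescent and replicating β-cells (x axis), with a line joining the arrays of each islet preparation and the mean ± SD of 3 arrays in black. For *Gcg*, *Sst* and *Ppy* every replicating point lies above every quiescent point, while the groups overlap for *Pyy* and *Ghrl*. Heights are compared only within a gene.

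*Sst* was also called higher in the replicating cells, with a ratio that differed widely between preparations. The probe (A_64_P067749) read 10.00, 9.90 and 10.18 in the replicating cells of preparations 1, 2 and 3, and 8.03, 7.03 and 9.81 in the quiescent cells. The replicating arrays lay within 0.28 of each other, whereas the quiescent arrays were spread over 2.77. The group means were 10.03 ± 0.14 (SD, n = 3) and 8.29 ± 1.40 (SD, n = 3). The groups did not overlap, but the lowest replicating array was only 0.09 above the highest quiescent array. The log2 ratios were 1.97, 2.87 and 0.37, that is 3.93-, 7.29- and 1.29-fold. Before normalisation the mean signal was 1011, 547 and 1519 in replicating and 286, 240 and 1062 in quiescent cells, so that the quiescent array of preparation 3 was above the replicating arrays of preparations 1 and 2.

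The limma estimate for *Sst* was 1.74 (SE 0.55, 95% interval 0.35 to 3.13), or 3.33-fold, with adjusted p = 0.475, which meets the rule for a higher call. Without preparation 2 the log2 ratio was 1.17 and the gene was still called just inside the threshold, and the adjusted p lay between 0.138 and 0.966 over all alternatives. Without preparation 1 it was 1.62, and the call was lost (limma, adjusted p = 0.966). Without preparation 3, where the ratio was smallest, it was 2.42. With Feature Extraction's own processed signal the ratio was 1.40 and the call was also lost (limma, adjusted p = 0.479).

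The repeat spots of the *Sst* probe show the spread of single spots on an array, which leaves out amplification and labelling. All 10 spots were used on each array but the quiescent array of preparation 2, where 1 was an outlier and 9 were used. The SD between spots was 0.0642 to 0.100 on an array. In the quiescent cells of preparation 3 the spots ran from 9.70 to 9.89, and in the replicating cells of preparation 2 from 9.80 to 10.08. Some spots of these arrays, which are the nearest of the groups, overlap, while their means lie 0.09 apart. Within each of the 3 preparations the spots did not overlap between the replicating and quiescent arrays. In preparation 3 the replicating spots ran from 10.07 to 10.30. Spots of an array share the same labelled cDNA and are no replicates of the condition.

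**Figure D2:**
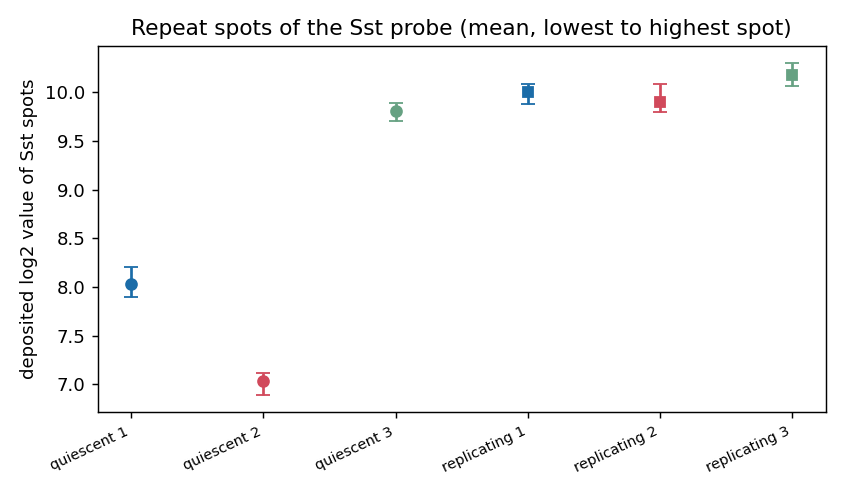
Deposited log2 values of the repeat *Sst* spots (y axis) on each array (x axis), where a point is the mean and the bar runs from the lowest to the highest spot. The quiescent array of preparation 3, at 9.81, lies next to the replicating arrays at 9.90 to 10.18, and the other quiescent arrays lie at 7.03 and 8.03.

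*Ppy* had the smallest ratio of the 3 genes called higher with all preparations, although *Sst* was below it without preparation 2 and with normexp signal scaled to the 75th percentile (1.26 against 1.37). The probe (A_64_P136993) read 11.91, 12.62 and 12.92 in the replicating cells of preparations 1, 2 and 3, and 10.70, 11.62 and 11.49 in the quiescent cells. All replicating arrays were above all quiescent arrays, with a gap of 0.28 between the nearest. The means were 12.48 ± 0.52 (SD, n = 3) and 11.27 ± 0.50 (SD, n = 3). The fold within preparations was 2.31, 1.99 and 2.70. The log2 ratio of preparation 2 was the lowest, at 0.99, on the deposited values, but the highest under the scalings to the 75th percentile, at 1.51 and 1.55. The limma log2 ratio was 1.21 (SE 0.31, 95% interval 0.42 to 2.01), or 2.32-fold, with adjusted p = 0.475.

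Unlike those of *Gcg* and *Sst*, the *Ppy* ratio was slightly larger without preparation 2, at 1.32, and it was 1.10 without preparation 3. Without preparation 1 the ratio was the same, 1.21, but the call was lost on the arrays that remained (limma, adjusted p = 0.966). It was also lost with the processed signal, where the ratio was 1.40 (limma, adjusted p = 0.479). The *Ppy* ratio lay at percentile 94.4 of all probes. Its mean signal before normalisation was 4128, 4122 and 11336 in replicating and 1431, 2200 and 4727 in quiescent cells, higher in the replicating array of each preparation but overlapping between preparations.

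*Pyy*, next to *Ppy* on the chromosome and from the same peptide family, was not called. The probe (A_64_P051393) read 9.39, 9.15 and 10.40 in the replicating cells and 9.60, 9.31 and 9.44 in the quiescent cells of preparations 1, 2 and 3. The replicating value of preparation 3 was above all others, and the other replicating arrays fell within or under the quiescent range, so the groups overlapped. The log2 ratios were -0.21, -0.17 and 0.96. The limma estimate was 0.20 (SE 0.38, 95% interval -0.78 to 1.17), with adjusted p = 0.823. Without preparation 3 the sign turned, to -0.19 (limma, adjusted p = 0.798), and without preparation 2 the ratio was 0.38. The interval reaches up to 1.17, near the *Ppy* estimate of 1.21, and the difference between the ratios of these genes was not tested.

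*Ghrl*, the gene of the ε-cell hormone, was near the limit of the array. The probe (A_44_P420046) was well above background on 1 of 3 replicating and on 3 of 3 quiescent arrays, whereas the other members were well above background on all 6. Of all non-control spots, 84.3% to 89.8% were well above background on the replicating arrays and 88.4% to 98.7% on the quiescent arrays. The *Ghrl* probe read 6.60, 6.65 and 6.49 in the replicating cells and 6.60, 6.74 and 7.30 in the quiescent cells of preparations 1, 2 and 3. The groups overlapped, since the quiescent value of preparation 1 was among the replicating values, and the pair of preparation 3 lay furthest apart. The means were 6.58 ± 0.09 (SD, n = 3) and 6.88 ± 0.37 (SD, n = 3), and the limma log2 ratio was -0.30 (SE 0.34, 95% interval -1.17 to 0.57), with adjusted p = 0.675. The mean signal before normalisation was 48.0, 46.4 and 52.2 in replicating and 91.2, 188 and 95.5 in quiescent cells, without overlap.

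The size of the *Ghrl* difference changed with the signal used. With the processed signal scaled to the 75th percentile, its log2 ratio was -2.45 (limma, adjusted p = 0.479), with -2.24, -3.05 and -2.07 in the preparations, which meets the rule for a lower call. Under that scaling the median of all probes was -0.71, against -0.07 with the deposited values, and *Ghrl* lay at percentile 9.23. In the other alternatives the ratio was between -0.78 and -0.04 and was not called, and it was -0.41 without preparation 2 and -0.04 without preparation 3.

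**Figure D3:**
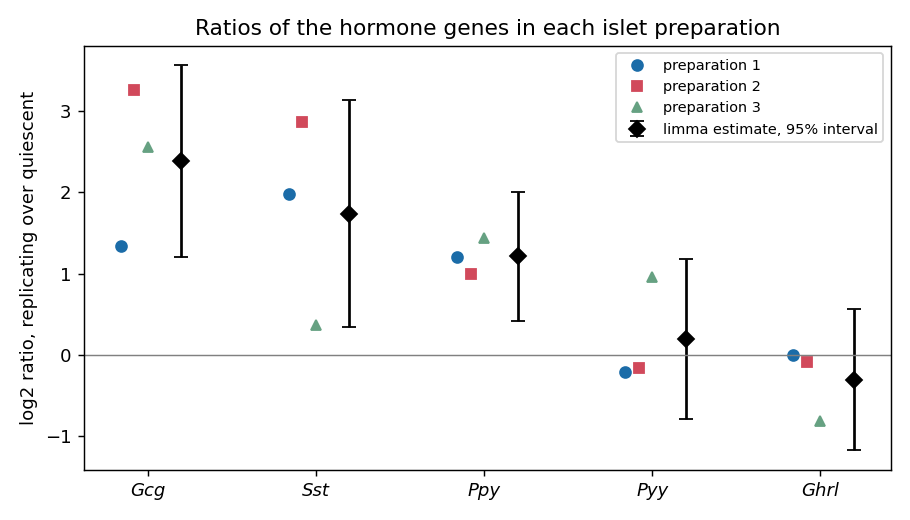
Log2 ratio of replicating over quiescent cells (y axis) for each hormone gene (x axis), in each islet preparation (coloured points) and as the limma estimate with its 95% interval (black). The intervals of *Gcg*, *Sst* and *Ppy* lie above 0, with lower bounds of 1.21, 0.35 and 0.42, and those of *Pyy* and *Ghrl* include 0.

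Over the 5 members, 3 of 5 were called higher, beside 4.44% of all probes, and 0 of 5 were called lower, beside 4.18%. *Pyy* and *Ghrl* were not called. Without preparation 2 the same 3 genes were called higher, beside 3.17% of probes. Without preparation 1 only *Gcg* was called higher, where 518 of all probes were, against 2023 with all preparations. The replicating arrays were all above the quiescent arrays for 3 of 5 members, beside 9.01% of the 44652 probes measured on every array, and all below them for 0 of 5, beside 7.1%. The ratio was above 0 in all 3 preparations for the same 3 genes, beside 15.7% of those probes, and below 0 in all 3 for *Ghrl*, beside 20.5%. The median ratio of the members was 1.21, that of *Ppy*, and that of all probes was -0.07.

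**Figure D4:**
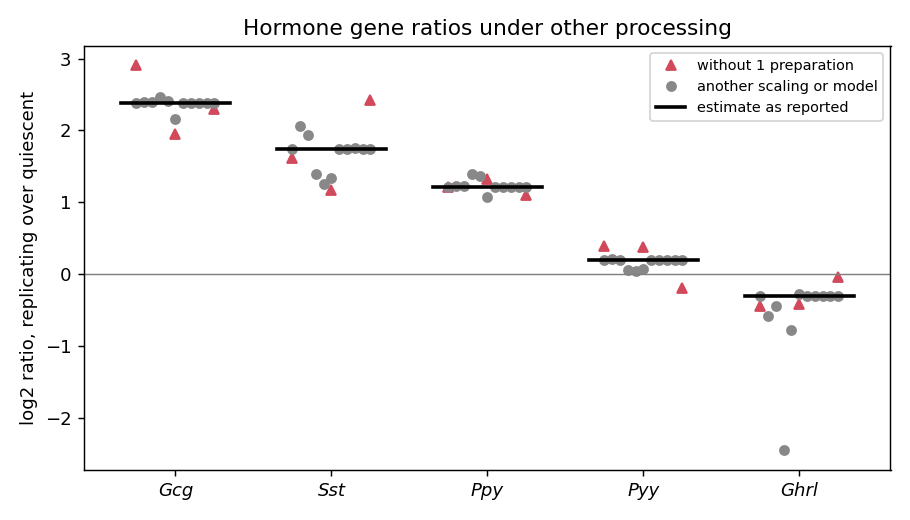
Log2 ratio of replicating over quiescent cells (y axis) for each hormone gene (x axis) as reported (black line), with 1 preparation left out (red triangles) and with another scaling or model (grey circles). *Gcg*, *Sst* and *Ppy* stay above 0 in every setting drawn, *Pyy* crosses 0 without preparation 3, and *Ghrl* reaches -2.45 with the processed signal.

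Of 14 genes for receptors of these and related peptide hormones, 0 were called higher and 1 lower, a share near the 8.61% of all probes. The median log2 ratio was -0.17, and it was -0.56 and -0.78 under the scalings to the 75th percentile, where the medians of all probes were -0.39 and -0.71. The called gene was *Sstr4*, a somatostatin receptor, which read 9.72, 10.03 and 9.46 in replicating and 11.41, 11.48 and 9.63 in quiescent cells. The replicating values of *Sstr4* overlapped the quiescent ones, through the low quiescent value of preparation 3. Its limma log2 ratio was -1.10 (adjusted p = 0.475), and the call was lost without preparation 1 (-0.81) or 2 (-0.93), and it held in 4 of 12 alternatives. Without preparation 3, 3 receptor genes were called lower, where 5633 of all probes were, against 1905 with all preparations. The glucagon receptor gene *Gcgr* had a ratio of 0.58 (limma, adjusted p = 0.499) and the ghrelin receptor gene *Ghsr* one of -0.93 (limma, adjusted p = 0.475), and neither was called.

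Among 12 genes of prohormone processing and granule release, 1 was called higher and 0 lower, beside 4.44% and 4.18% of all probes. The median was 0.66. The called gene was *Chga*, which encodes the granule protein chromogranin A. It read 12.05, 12.81 and 11.91 in replicating and 11.28, 11.97 and 10.51 in quiescent cells. Its replicating values overlapped the quiescent ones narrowly, and its ratio of 1.00 was at the threshold. The call held in 5 of 12 alternatives, among them without preparation 2 (1.09), and was lost without preparation 1 (1.12) or 3 (0.80). The median of the list was 0.10 without preparation 2. *Mboat4*, which encodes the enzyme that acylates ghrelin, had a ratio of -0.07 (limma, adjusted p = 0.932).

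Of 13 transcription factor genes of non-β islet cells on the array, 0 were called in either direction, beside 8.61% of all probes. The median was 0.35, and it was 0.24 without preparation 2. Under the scalings to the 75th percentile it was 0.06 and 0.02, where the medians of all probes were -0.39 and -0.71. *Hhex*, the δ-cell factor, had a ratio of 0.57 (limma, adjusted p = 0.487). Without preparation 3, *Rfx6* and *Neurod1* were called higher, where 5112 of all probes were, against 2023 with all preparations.

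Of 14 genes of other islet and gut peptide hormones, 2 were called higher and 0 lower, beside 4.44% and 4.18% of all probes. The median was 0.28. *Cck* (cholecystokinin) read 10.99, 11.12 and 11.23 in replicating and 8.77, 7.95 and 9.43 in quiescent cells, with no overlap. Its limma log2 ratio of 2.40 (SE 0.39, adjusted p = 0.315) was close in size to that of *Gcg*, and the difference between them was not tested. Without preparation 2 it was 2.01. *Calca* (calcitonin and its gene-related peptide) had a ratio of 1.83 (limma, adjusted p = 0.475), 1.43 without preparation 2 and not called without preparation 1 (1.57), and another probe of the gene read -0.27. Leaving out preparation 3 raised the calls of this list to 5 higher and 1 lower. It raised those of all probes to 5112 higher and 5633 lower.

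Marker genes of the cells that normally make these hormones were then counted beside the members. The calls in the α-, δ- and PP cell lists stand beside 4.44% of all probes called higher and 4.18% called lower. Of 11 α-cell markers, which leave out *Gcg*, 1 was called higher and 0 lower. Their median was 0.35, and it was -0.11 and -0.34 under the scalings to the 75th percentile. The medians of all probes were -0.39 and -0.71 under these scalings, against -0.07 with the deposited values. The called gene was *Gc* (vitamin D-binding protein), at 11.20, 10.98 and 11.28 in replicating and 9.84, 7.36 and 10.69 in quiescent cells, with a ratio of 1.86 (limma, adjusted p = 0.475). The replicating values of *Gc* were all above the quiescent ones, but the call held in 8 of 12 alternatives and was lost without preparation 1 (2.10) or 2 (0.98). *Ttr* (transthyretin) had a ratio of -0.20 (limma, adjusted p = 0.852). The summed level of the α-cell markers was 19879 to 31988 on the linear scale in replicating and 4856 to 31428 in quiescent arrays. Such a sum, here and in the lists below, weighs bright genes most and is no measure of cell content. *Peg3* was the brightest of the list on every array, at 13.53 to 14.40 in replicating and 11.30 to 14.34 in quiescent cells.

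Of 8 δ-cell markers, 1 was called higher and 0 lower, with a median of 0.10. The median was -0.25 and -0.29 under the scalings to the 75th percentile, where those of all probes were -0.39 and -0.71. Without preparation 2 the median of the list was -0.30, and that of all probes was -0.07. *Rbp4* (retinol-binding protein) read 7.48, 8.51 and 9.41 in replicating and 6.40, 7.15 and 7.39 in quiescent cells, with a ratio of 1.49 (limma, adjusted p = 0.475). Its groups were separate and the call held with each preparation left out, though not under the scalings to the 75th percentile. The summed level of the list was 18991 to 19553 in replicating and 15047 to 23295 in quiescent arrays. *Hadh* was its brightest gene on every array, at 13.60 to 13.77 in replicating and 12.29 to 14.09 in quiescent cells. Of 8 PP cell markers, which leave out *Ppy*, 0 were called, and the summed levels were 1963 to 2440 and 1846 to 4599. The median was 0.16, and -0.31 and -0.71 under the scalings to the 75th percentile, beside -0.39 and -0.71 for all probes. Without preparation 2, *Abcc9* of this list was called higher, beside 3.17% of all probes. Without preparation 3, *Fxyd2* of this list and *Ghsr* of the δ-cell list were called lower, where 5633 of all probes were. With all preparations the *Fxyd2* ratio was -1.16, and another probe of the gene read 0.01. In the δ- and the PP cell list alike, 4 of 8 genes had a ratio below 0.

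In the β-cell list 0 of 11 genes were called higher and 1 lower, beside 4.44% and 4.18% of all probes. The median was -0.56, but -0.02 without preparation 3 and -0.22 with outlier spots kept. *Ins1* and *Ins2* had ratios of 0.25 and 0.42 (limma adjusted p = 0.733 and 0.567). The called gene was *Mafa*, a β-cell transcription factor, with a ratio of -1.01 (limma, adjusted p = 0.475), a call that held in 6 of 12 alternatives and was lost without preparation 1 (-0.89) or 3 (-0.87). The summed level of the β-cell markers was 261447 to 328900 in replicating and 158785 to 367810 in quiescent arrays.

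Markers of cells outside the endocrine islet were counted in the same way, beside the 4.44% of all probes called higher. Of 10 mesenchymal markers 3 were called higher and 0 lower, with a median of 0.93 and summed levels of 13250 to 38432 in replicating and 5033 to 6606 in quiescent arrays, without overlap. They were *Col3a1* (3.04), *Col1a2* (2.93) and *Vim* (1.89). Without preparation 2 there were 6, beside 3.17% of all probes, and *Vim* was lost without preparation 1 (1.62) and with the processed signal. Of 8 immune markers 2 were called higher, *Cd68* (1.32) and *Cd74* (1.48), and each of these calls held in 9 of 12 alternatives. In this list 0 were called higher without preparation 1, where 518 of all probes were, and 4 without preparation 2. Of 10 acinar markers 1 was called higher (*Prss1*, 1.56), a call that held in 9 of 12 alternatives and was lost without preparation 1 (0.88). Of 8 duct markers 1 was called higher (*Spp1*, 2.09), while 6 had a ratio below 0. The median of the duct list was -0.28, and 0.04 without preparation 2. Of 8 endothelial markers 0 were called. Without preparation 3, 2 were called higher and 2 lower, where 5112 and 5633 of all probes were. None of the genes of these lists outside the endocrine islet was called lower with all preparations, and none of the genes on the array in any of the lists was below background on every array. The part of other cell types in the values of *Gcg*, *Sst* and *Ppy* was not tested.

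**Figure D5:**
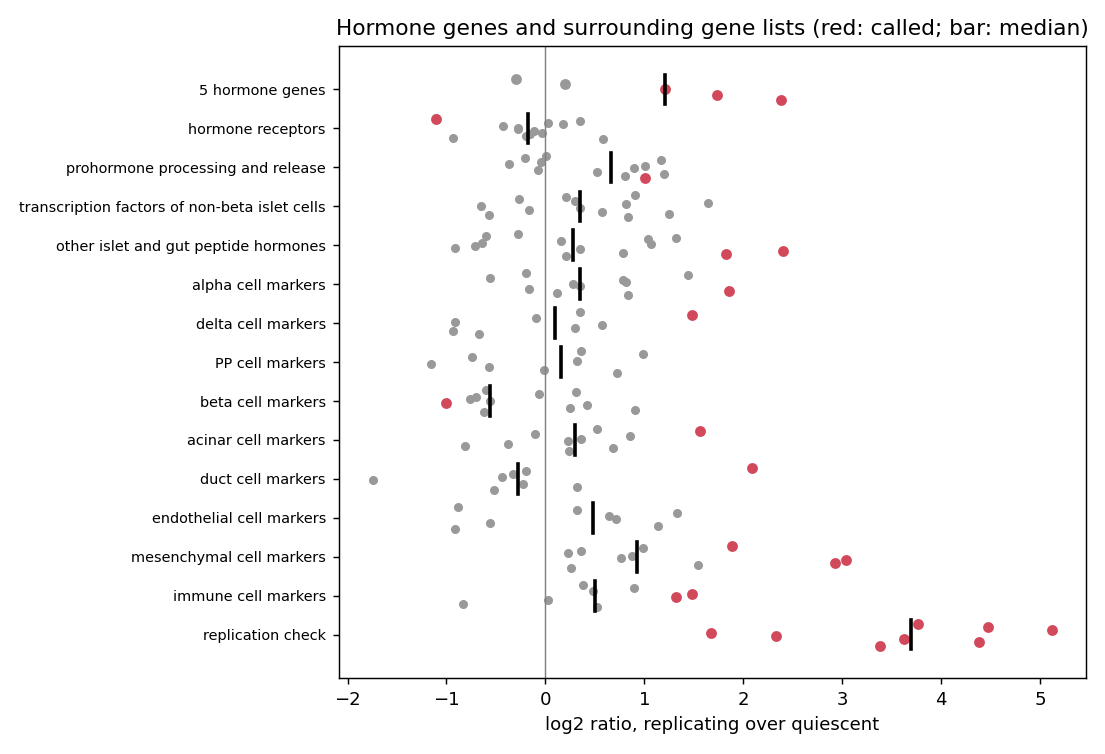
Log2 ratio of replicating over quiescent cells (x axis) for each gene of the lists (rows), with called genes in red, other genes in grey and the median of each list as a black bar. The row of the 5 hormone genes holds 3 called genes, the α-cell list 1 of 11 and the mesenchymal list 3 of 10, and in the replication check all 8 genes are called.

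The genes whose values followed a member most closely over the 6 arrays were ranked by Pearson's r among 19818 probes well above background on every array. The 6 arrays share 3 preparations and fall in 2 groups, so r is a description only. For *Gcg* these were *Grpr*, *C5ar2*, *Psat1*, *Tmem98* and *Ubxn11*, with an r of 0.985 to 0.994. Their ratios were smaller, at most 1.29 in a preparation. For *Sst* they were *Prkar2a*, *Lrrc40*, *Snn*, *Pds5b* and *Yipf6*, with an r of 0.998 to 0.999. For *Ppy* they were *Spg7*, *Ahnak*, *Pole3*, *Dpy30* and the δ-cell marker *Rbp4*, with an r of 0.969 to 0.983. For *Pyy* they were *Gpr162*, *Ccl6*, *Pex11g*, *Orm1* and *Csrp3*, with an r of 0.927 to 0.962.

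The members differed in how many probes shared their pattern. An r of at least 0.9 was reached by 3391 of 19817 probes (17.1%) with *Sst*, 268 (1.35%) with *Gcg*, 98 (0.495%) with *Ppy* and 12 (0.0606%) with *Pyy*. The pattern of *Sst*, level in the replicating arrays and lowest in the quiescent array of preparation 2, was thus the one that most probes shared, and that of *Pyy* was shared by the fewest of the 4.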

How the data were processed

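RNA of the 6 sorted samples was amplified as cDNA, labelled with Cy3 after conversion to double-stranded cDNA, so that strand is not told apart, and hybridised to 6 single-colour rat arrays on 1 slide. The authors scanned the arrays and extracted each spot's intensity with Feature Extraction 10.7.3.1, whose annotation gives positions on rn4. The deposited log2 values were made by the authors with normexp background correction and quantile normalization. Recomputed from the deposited intensity values at an offset of 50, they differed by at most 0.000245. No sample column was left unused.

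Control spots and outlier spots were left out and the spots of each probe averaged. All 45598 probes were fitted with limma 3.58.1 (lmFit and eBayes) in R 4.3.3, with a block for the islet preparation, following the paired design of the methods, and adjusted by Benjamini-Hochberg over all probes. The files were read with data.table, version 1.17.8. Labels and methods give the pairing, since both samples of a preparation come from the same islets. Across probes, the deviations from the group means correlated within pairs at 0.0561, 0.242 and 0.258. The number of preparations, 3 of 4 pooled rats each, limits the precision. The fit was tested on simulated data. Exact permutation of 3 pairs cannot pass 0.05 and was not used.

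Where a listed gene had more than 1 probe, the one with the highest overall mean stood for it. Names came from RefSeq (GRCr8) by accession for 21109 probes and from the array files for 24489, and promoter sequences from RefSeq. The members, the 14 lists and the rules were chosen with earlier results of these data known. The genes named are the 5 members, list genes that were called, a few defining markers (*Ins1*, *Ins2*, *Ttr*, *Gc*, *Hhex*), and the 5 genes most alike in Pearson's r to each member well above background on all 6 arrays, which leaves out *Ghrl*. *Gcgr*, *Ghsr*, *Mboat4*, *Rfx6*, *Neurod1*, *Abcc9*, *Fxyd2*, *Peg3* and *Hadh* were named after their values were seen. Some genes of the lists are not reported here by name. *Insm1* and *G6pc2* had no probe under these names. Alternatives were normexp offsets of 0, 16 and 50 on the intensities, processed signal or normexp signal scaled to the 75th percentile, cyclic loess, no block, a filter on dim probes, outlier spots kept, a variance trend, the median over a gene's probes, and each preparation left out.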

Additional observations from a re-analysis of the deposited data

How the results depend on the processing

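Of the 14 alternatives, the recomputed deposited values and the median over a gene's probes cannot change a member. In the other 12, *Gcg* kept its direction and its higher call, and *Sst* and *Ppy* kept their direction and, in 10, their call. Both calls were lost with the processed signal, which was always scaled to the 75th percentile (*Sst* 1.40, *Ppy* 1.40). Leaving out each preparation gave 1.95 to 2.91 for *Gcg*, 1.17 to 2.42 for *Sst*, 1.10 to 1.32 for *Ppy*, -0.19 to 0.40 for *Pyy* and -0.45 to -0.04 for *Ghrl*, with the *Sst* and *Ppy* calls lost without preparation 1. *Pyy* turned its sign only without preparation 3 (-0.19), and *Ghrl* was called only with the processed signal (-2.45). Without the replicate block the ratios were unchanged (*Gcg* 2.39, *Sst* 1.74, *Ppy* 1.21), the limma adjusted p was 0.520, 0.542 and 0.542, and no member changed its call.

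The counts moved more. Probes called higher, 2023, were 662 with the processed signal (1596 with normexp signal under the same scaling) and 518 to 5112 with a preparation left out. Probes called lower, 1905, were 3193 with the processed signal, 5862 with normexp signal scaled to the 75th percentile, 878 without the block and 63 to 5633 with a preparation left out. The 0 probes at an adjusted p under 0.05 became 719 with that scaling, 204 with cyclic loess, 99 without the block, 61 with the variance trend, and 0 to 84 with a preparation left out. In the 4 hormone pathway lists (receptors, processing, transcription factors, other hormones) the 3 genes called higher became 5 with the 75th percentile scaling and 1 to 7 with a preparation left out, and the 1 lower became 2 with that scaling, 0 with an offset of 16, without the block and with the trend, and 0 to 4 with a preparation left out. In the α-, δ- and PP cell lists the 2 called higher became 0 with the processed signal, 1 with the 75th percentile scaling and without the block, and 1 to 3 with a preparation left out, and the 0 lower became 1 with offsets of 0 and 16 and with the processed signal, 2 with the 75th percentile scaling and 0 to 2 with a preparation left out. The cause was not tested. The *Ghrl* ratio rests on values near background, since its probe was not well above background on 2 of 3 replicating arrays.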
